A study of Mus musculus with 16 samples.

Results

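The miR-17 seed family is a group of mouse miRNAs that share the same seed, the bases near the 5′ end that pair with target mRNAs. Its 6 names are mmu-miR-17, mmu-miR-20a, mmu-miR-20b, mmu-miR-93, mmu-miR-106a and mmu-miR-106b, and members were found by these names on the array. Of the 650 miRNA names on the array, 5 were members with 2 probes each, and no probe carried the name of mmu-miR-106a, which was not analysed here. mmu-miR-17 was detected on 1 of 16 arrays, so 4 members were among the 281 miRNAs that passed the filter on detection and were tested.

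The arrays held sciatic nerves of mice bred from floxed Dicer1 mice of the Dicer1tm1Bdh/J strain and Dhh-Cre mice, 1 mouse per array and 4 arrays per group. Mutants were Dicer1 fl/fl with Dhh-Cre (called fl) and controls were Dicer1 wt/fl with Dhh-Cre (called wt), each at embryonic day 17 (E17) and at postnatal day 4 (p4). All 4 groups therefore carried the Cre transgene and at least 1 floxed allele, and both sexes were used. By the paper, the sex counts of the 2 genotypes were equal at E17 and unequal at p4. Cre was driven by the desert hedgehog promoter, which is active in Schwann cells, and recombination in the axons, fibroblasts, vessels and other cells of the nerve was not measured here. The RNA came from whole nerve, in which fewer cells of a type and less RNA per cell cannot be told apart. The 8 arrays of E17 lay on 1 slide and the 8 arrays of p4 on another, so age and slide cannot be told apart, whereas both genotypes shared each slide.

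A miRNA is cut from its hairpin precursor by Dicer, loaded into a silencing complex and guided by its seed to mRNAs, which are then repressed. The miR-17 family is known for restraining cell cycle inhibitors and for supporting the proliferation of progenitor cells, and its first cluster is known as an oncogene. The family is encoded in 3 clusters, each transcribed as a common primary transcript. The cluster on chromosome 14 (GRCm38.p6, chr14:115043671-115044506, plus strand) holds the hairpins of miR-17, miR-18a, miR-19a, miR-20a, miR-19b and miR-92a in this order, and its last 117 bases overlap the annotated lncRNA Mir17hg. The cluster on chromosome X (chrX:52741693-52742567, minus strand) holds miR-106a, miR-18b, miR-20b, a further copy each of miR-19b and miR-92a, and miR-363, and shares 5 bases with the lncRNA Kis2. The cluster on chromosome 5 (chr5:138165321-138165818, minus strand) holds miR-106b, miR-93 and miR-25 and lies inside Mcm7, a gene of the replicative helicase.

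The mature sequences show how near to one another the members are, and which of them differ within the family. They are given 5′ to 3′ from the RefSeq table of GRCm38.p6, in which the older array name stands for the arm now called 5p, and capitals mark the seed, bases 2 to 8.
mmu-miR-17 (chromosome 14): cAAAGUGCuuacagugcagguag
mmu-miR-20a (chromosome 14): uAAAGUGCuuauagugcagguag
mmu-miR-106a (chromosome X): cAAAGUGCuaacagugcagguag
mmu-miR-20b (chromosome X): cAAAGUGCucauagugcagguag
mmu-miR-93 (chromosome 5): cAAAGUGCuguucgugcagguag
mmu-miR-106b (chromosome 5): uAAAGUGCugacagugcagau

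The seed AAAGUGC was held by 7 of 1679 mature mouse names in that table, or 0.417%, the seventh being mmu-miR-6383. Counted from 1 at the 5′ end, mmu-miR-20a differs from mmu-miR-17 by C1U and C12U, and mmu-miR-20b differs from it by U10C and C12U. Between mmu-miR-20a and mmu-miR-20b, which are compared on the same arrays below, 21 of 23 bases are the same and the differences are U1C and U10C. mmu-miR-93 and mmu-miR-106b, neighbours in 1 cluster, share 16 of the 21 bases compared and are thus less alike. The sequences of the probes were not used here, so how far the probe of 1 member also binds its near-identical relatives was not tested.

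Values below are log2 median spot signals, quantile normalized over the 16 arrays, on the brightest probe of a miRNA. A miRNA was called where the log2 difference of at least 1 of its probes was at least 0.5 in size, with an adjusted p of at most 0.05 and no probe passing the other way, in limma fitted on all 16 arrays and adjusted by the Benjamini-Hochberg method over 681 probes. Because the signals include background, these differences understate the change of dim miRNAs, and because the arrays were made alike in distribution, they are relative to the other miRNAs of the array. The total background-subtracted signal was 122860 to 154076 on wt arrays and 56841 to 83630 on fl arrays at p4, and 36495 to 60373 and 39097 to 50827 at E17. Without normalization, the median difference of all 681 probes was -0.09 between the genotypes at p4, 0.25 at E17 and 0.42 between the ages in wt.

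At p4, all 4 tested members were lower in fl than in wt nerves, with mmu-miR-20b falling most and the other 3 falling by about 1 on the log2 scale. Of all 281 miRNAs, 10.7% were called lower in this comparison. On the brightest probe, every fl array lay under every wt array for 4 of the 4 members, as for 24.2% of the miRNAs tested. The median difference over the 8 member probes was -1.01, against 0.02 over all 681 probes. The adjusted p was at most 0.05 for 8 of these 8 probes, and 7 passed both limits. With the limit on p alone, 85 of all 281 miRNAs were called lower and 83 higher.

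mmu-miR-20b, the member of the chromosome X cluster, measured 9.15, 8.83, 8.95 and 9.32 on the wt arrays at p4 and 6.94, 7.28, 6.98 and 7.20 on the fl arrays. The groups lay far apart, with a difference of -1.96 (SE 0.12, 95% interval -2.22 to -1.71, limma adjusted p = 1.72e-08), or 3.90-fold on this scale. Its second probe gave -2.06 (SE 0.15, limma adjusted p = 8.30e-08).

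mmu-miR-20a, the detected member of the chromosome 14 cluster, measured 9.15, 8.81, 8.85 and 9.27 on the wt arrays and 7.66, 8.12, 7.74 and 7.99 on the fl arrays at p4. All fl arrays were lower, by 1.14 between the means (difference -1.14, SE 0.13, limma adjusted p = 5.94e-06), and the second probe gave -1.10.

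mmu-miR-93, the middle hairpin of the Mcm7 cluster, measured 8.14, 8.03, 7.94 and 8.32 on the wt arrays and 6.91, 7.32, 7.17 and 7.33 on the fl arrays at p4. The difference was -0.92 (SE 0.11, limma adjusted p = 1.16e-05). Its second probe was dim, well above background on 3 of the 4 wt arrays and on no fl array, and its difference of -0.33 did not reach the limit of 0.5. mmu-miR-106b, the first hairpin of the same cluster, measured 8.09, 7.83, 7.82 and 8.32 on the wt arrays and 7.06, 7.28, 7.21 and 7.24 on the fl arrays. Here the difference was -0.82 (SE 0.12, limma adjusted p = 8.03e-05) and the second probe gave -0.65. The calls on mmu-miR-93 and mmu-miR-106b were lost where a difference of at least 1 was asked for. Without normalization between arrays, the differences of the 4 members at p4 ran from -2.84 (mmu-miR-20b) to -1.52 (mmu-miR-106b), with the same calls.

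**Figure D1:**
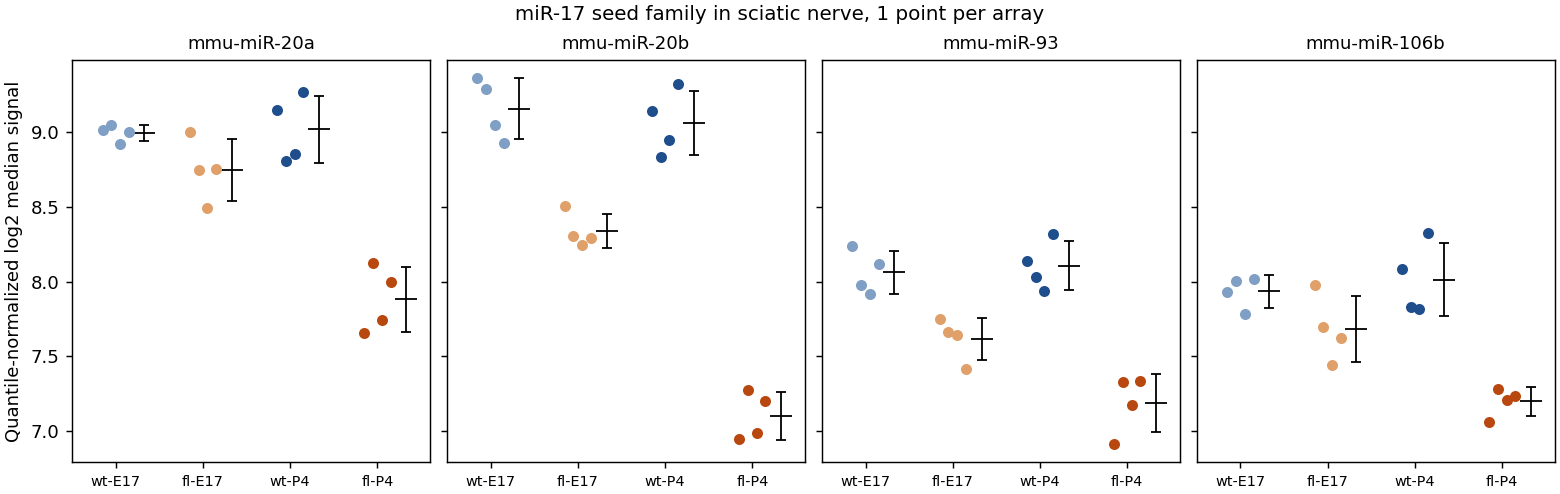
Quantile-normalized log2 median signal (y axis) of the 4 tested members on each of the 16 arrays by group (x axis), with the mean ± SD of the 4 arrays beside the points. The fl-P4 arrays lie under all wt-P4 arrays in each panel, and the fl-E17 arrays of mmu-miR-20b and mmu-miR-93 lie under their wt-E17 arrays while those of mmu-miR-20a and mmu-miR-106b overlap with them.

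Background-subtracted gene signals, which Feature Extraction sums over the probes of a miRNA and which were not normalized between arrays, showed the same order of members at p4 with larger folds. For mmu-miR-20b they were 977, 935, 1047 and 1173 on the wt arrays and 56.8, 95.5, 57.9 and 83.8 on the fl arrays, so that the fl mean was 7.12% of the wt mean. mmu-miR-20a went from 848 to 946 on the wt arrays to 123 to 238 on the fl arrays, with the fl mean at 20.0% of the wt mean. The fl means of mmu-miR-93 and mmu-miR-106b were 21.98% and 23.5% of their wt means. As shares of the array total, mmu-miR-20b was 7.42 times higher in wt, mmu-miR-20a 2.64 times, mmu-miR-93 2.37 times and mmu-miR-106b 2.21 times.

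mmu-miR-17 itself, which gives the family its name and is the first hairpin of the chromosome 14 cluster, had almost no signal. Its gene signal lay between 4.76 and 7.62 on the wt arrays at p4, between -2.33 and 4.2 on the wt arrays at E17, and below 0 on each of the 8 fl arrays. Neither of its probes was well above background on any of the 16 arrays, and its detection rested on 1 wt array of p4. No fold is given for it. Whether its probes work on this array was not tested, so its level in the nerve is not known from these data. Its passenger strand mmu-miR-17*, cut from the same hairpin, was detected on 4 wt and 0 fl arrays at p4, and on 3 wt and 1 fl array at E17. It thus passed the filter on detection only through the wt groups, where it was high. At p4 its log2 differences were -0.30 on the brighter and -0.17 on the dimmer probe, which did not reach the limit of 0.5. It was the 1 passenger strand of 8 on the array that passed the filter on detection. Signals of different probes are not on 1 scale, so the levels of mmu-miR-17 and mmu-miR-20a, which come from the same transcript, are not set against each other.

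**Figure D2:**
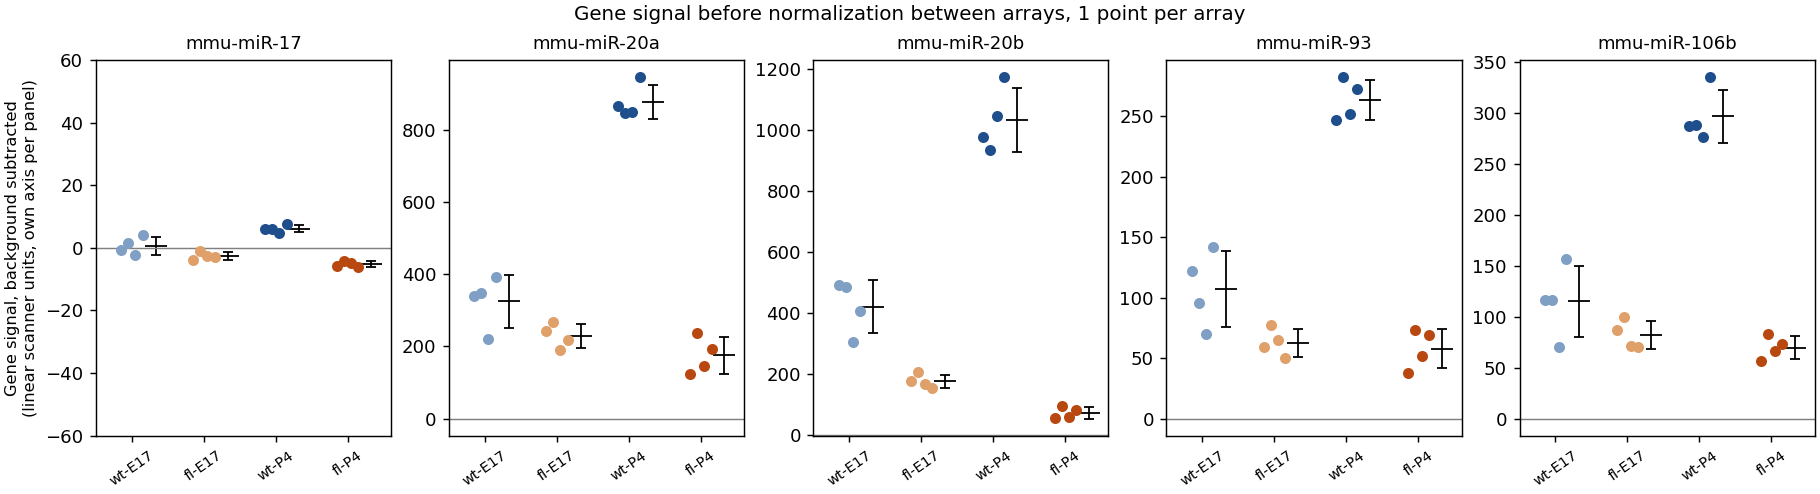
Background-subtracted gene signal in linear scanner units (y axis, its own range in each panel) for the 5 members on the array, 1 point per array by group, with the mean ± SD of 4 arrays. mmu-miR-17 lies between -6.11 and 7.62 on every array, whereas the other 4 members are highest in the wt-P4 group and at p4 fall to between 7.12% and 23.5% of the wt mean.

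At E17, before myelin forms, 1 of the 4 tested members was called. mmu-miR-20b was lower in fl nerves and none was higher, while 2.49% of all 281 miRNAs were called lower. On the brightest probe, every fl array lay under every wt array for 2 of the 4 members, mmu-miR-20b and mmu-miR-93, and for 13.9% of all miRNAs tested. The median difference over the 8 member probes was -0.25, against 0.00 over all probes.

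mmu-miR-20b measured 9.36, 9.29, 9.05 and 8.93 on the wt arrays of E17 and 8.50, 8.30, 8.25 and 8.29 on the fl arrays, without overlap. The difference was -0.82 (SE 0.12, limma adjusted p = 0.00150), or 1.77-fold, and -0.96 on the second probe. In gene signals, the fl mean was 41.7% of the wt mean.

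The other members were lower by less. mmu-miR-93 measured 8.24, 7.97, 7.92 and 8.12 on wt arrays and 7.75, 7.66, 7.64 and 7.42 on fl arrays, and its difference of -0.45 (SE 0.11, limma adjusted p = 0.0197) passed the limit on p but not that of 0.5 in size. mmu-miR-20a measured 9.02, 9.05, 8.92 and 9.0 on wt arrays and 9.0, 8.75, 8.49 and 8.75 on fl arrays, which overlapped, and its difference was -0.25 (95% interval -0.52 to 0.02, limma adjusted p = 0.223). mmu-miR-106b gave -0.25 as well (95% interval -0.51 to 0.01, limma adjusted p = 0.196).

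The difference between the mutant effects at both ages was tested itself, as the effect at p4 minus that at E17, and was called as lower for 3 of 4 members and for 6.76% of all miRNAs. It was -1.14 (SE 0.17, limma adjusted p = 0.000320) for mmu-miR-20b, -0.89 (SE 0.18, limma adjusted p = 0.00348) for mmu-miR-20a and -0.57 (SE 0.17, limma adjusted p = 0.0371) for mmu-miR-106b. For mmu-miR-93 it was -0.47 (limma adjusted p = 0.0553), which was not called. That probe gained the call in 5 other settings, with -1.24 without normalization (limma adjusted p = 6.95e-05), -0.85 with the 75th percentile of all probes, -0.71 with background-subtracted signals, -0.62 with the deposited table and -0.50 with array weights, and in 4 of the 16 fits that left out 1 array. The result for mmu-miR-106b on this probe lost its call in 9 of the 16 fits that left out 1 array, with differences between -0.65 and -0.46, while its second probe gave -0.57 (limma adjusted p = 0.00101). The arrays of the fl and wt groups at each age are the same as those of the comparisons above.

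In wt nerves, no member was called between E17 and p4, whereas 12.1% of all miRNAs were called lower at p4. The differences were 0.02 (95% interval -0.25 to 0.30) for mmu-miR-20a, -0.10 (95% interval -0.35 to 0.16) for mmu-miR-20b, 0.04 (95% interval -0.19 to 0.28) for mmu-miR-93 and 0.08 (95% interval -0.18 to 0.34) for mmu-miR-106b. This near absence of a difference holds only relative to the other miRNAs. Without normalization between arrays, the same 4 members were higher at p4 by 1.15 to 1.31 and were called, and so they were when scaled to the 75th percentile of all probes, by 0.78 to 0.94. So were 161 of all 281 miRNAs without normalization and 92 with that percentile. In gene signals, mmu-miR-20b went from a mean of 421 at E17 to 1033 at p4 in wt and mmu-miR-20a from 325 to 877, while their shares of the array total were 0.860% and 0.778%, and 0.654% and 0.659%.

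In fl nerves, 2 of the 4 members fell between E17 and p4, as did 7.47% of all miRNAs. mmu-miR-20b fell by 1.24 (SE 0.12, limma adjusted p = 8.84e-06) and mmu-miR-20a by 0.87 (SE 0.13, limma adjusted p = 0.000153), and neither had overlapping arrays. mmu-miR-93 with -0.43 (limma adjusted p = 0.0102) and mmu-miR-106b with -0.49 (limma adjusted p = 0.00818) did not reach the limit of 0.5. The gene signal of mmu-miR-20b fell from a mean of 176 to 73.5, and those of mmu-miR-93 (62.8 and 57.9) and mmu-miR-106b (82.2 and 69.6) were close at the 2 ages. Without normalization, the call on mmu-miR-20a was lost, with -0.33 (limma adjusted p = 0.249), and the value of mmu-miR-20b was the 1 still called. Age and slide cannot be told apart in both comparisons of ages.

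Because both members of a pair are read on the same array, a scaling factor of the array drops out of the difference between 2 members. mmu-miR-20b minus mmu-miR-20a was -0.00, 0.02, 0.09 and 0.05 on the wt arrays at p4 and -0.71, -0.85, -0.76 and -0.80 on the fl arrays, a change of -0.82. At E17 it was 0.35, 0.24, 0.13 and -0.08 on wt arrays and -0.50, -0.44, -0.25 and -0.46 on fl arrays, a change of -0.57. With background-subtracted gene signals, the changes were -1.47 at p4 and -0.76 at E17. At both ages, the fl arrays lay under the wt arrays without overlap, so mmu-miR-20b fell further than its chromosome 14 relative. The exact two-sided permutation test over 70 assignments gave p = 0.0286 for each, the smallest it allows, and 0.0762 when adjusted over the 8 tests made. With the same quantity fitted by limma for all other 680 probes relative to mmu-miR-20a, the adjusted p was 4.44e-07 at p4 and 0.00341 at E17. This fit was added after seeing the data, and each of its probes carries the change and noise of mmu-miR-20a. It is thus no independent support. Between E17 and p4, the pair changed by -0.37 in fl nerves (exact permutation p = 0.0286, 0.0762 adjusted, limma adjusted p = 0.00474). In wt nerves it changed by -0.12 (95% interval -0.36 to 0.12, exact permutation p = 0.257, 0.343 adjusted, limma adjusted p = 0.653).

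mmu-miR-93 minus mmu-miR-106b, the pair from 1 transcript, changed less. It was 0.05, 0.20, 0.12 and -0.01 on the wt arrays and -0.15, 0.04, -0.03 and 0.10 on the fl arrays at p4, which overlap, a change of -0.10 (95% interval -0.36 to 0.15, limma adjusted p = 0.434). At E17 the change was -0.20 (95% interval -0.45 to 0.06, limma adjusted p = 0.200).

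**Figure D3:**
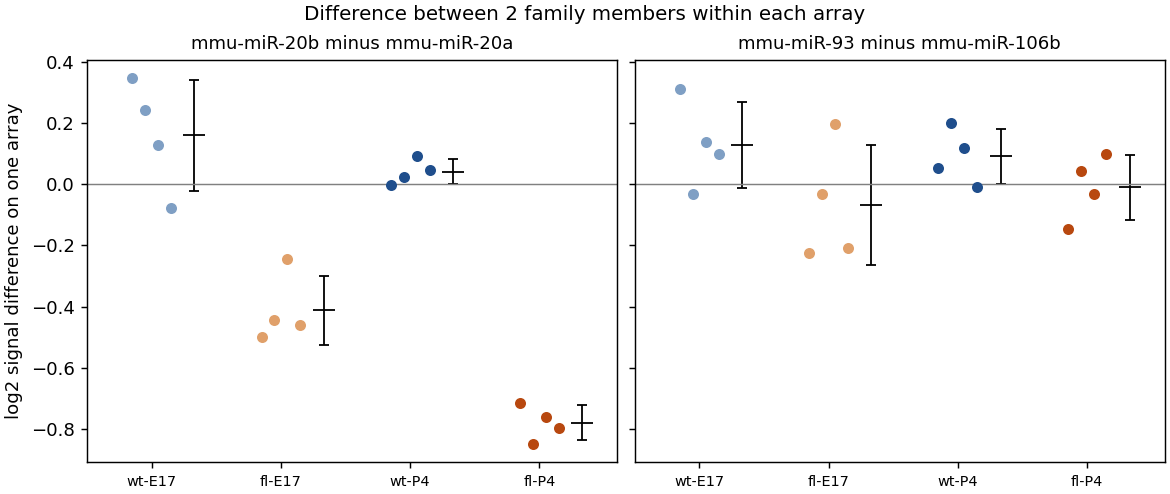
Difference of log2 signals between 2 members on the same array (y axis) by group (x axis), 1 point per array, with the mean ± SD of 4 arrays. For mmu-miR-20b minus mmu-miR-20a, the fl arrays lie between -0.85 and -0.25 and under all wt arrays of their age, whereas for mmu-miR-93 minus mmu-miR-106b the genotypes overlap.

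Of the miRNAs that share the transcripts of the family, 6 of the 7 on the array were tested, and at p4 miR-92a and miR-363 fell while the other 4 were not called. Among all miRNAs, 10.7% were called lower in this comparison. mmu-miR-363, the last hairpin of the chromosome X cluster, was well above background on all wt arrays and on no fl array. Its log2 signal was 6.91, 6.74, 6.87 and 7.11 on wt arrays and 6.0, 6.0, 5.92 and 5.99 on fl arrays at p4. The decrease was at least 1.54-fold on the brighter probe and 1.22-fold on the other. These are bounds against the lowest signal well above background on each array. The call rests on the difference of -0.93 (limma adjusted p = 9.29e-08), with the fl arrays near background. mmu-miR-363 passed the filter on detection only through the wt groups, where it was high, so this p is not independent of the filter. At E17 it was 6.90, 6.75, 6.70 and 6.62 on wt arrays and 6.04, 6.09, 6.06 and 6.05 on fl arrays. The decrease was at least 1.26-fold on the brighter and 1.04-fold on the other probe. With the same limits, the difference was -0.68 (limma adjusted p = 5.78e-05). The call at E17 was lost with normexp background correction (-0.46), without normalization (-0.35) and with scaling to the 75th percentile of bright probes (-0.22), and the last also ended the call at p4 (-0.40). It was the 1 partner called at E17, as mmu-miR-20b was the 1 member, while 2.49% of all miRNAs were called lower. The hairpins of both lie on chromosome X. A copy each of mmu-miR-92a and mmu-miR-19b lies there too, and these gave -0.06 and 0.05 at E17.

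mmu-miR-92a, whose hairpin is found on chromosome 14 and on chromosome X, measured 10.51, 10.41, 10.15 and 10.83 on wt arrays and 9.51, 9.72, 9.06 and 9.70 on fl arrays at p4, a difference of -0.98 (SE 0.14, limma adjusted p = 8.32e-05). At E17 its difference was -0.06 (95% interval -0.37 to 0.25, limma adjusted p = 0.827). It shares the seed AUUGCAC with mmu-miR-363, and their mature sequences are shown for comparison, from the same RefSeq table and with the seed in capitals.
mmu-miR-92a (chromosomes 14 and X): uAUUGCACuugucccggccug
mmu-miR-363 (chromosome X): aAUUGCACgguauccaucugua

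The other partners had smaller differences at p4. mmu-miR-18a gave -0.49 (limma adjusted p = 0.000194), mmu-miR-19b -0.49 (limma adjusted p = 0.0303), mmu-miR-25 -0.40 (limma adjusted p = 0.0221) and mmu-miR-19a -0.19 (limma adjusted p = 0.165). None of them reached the limit of 0.5 in size, mmu-miR-18a and mmu-miR-19b only just, and all but mmu-miR-19a passed the limit on p. mmu-miR-18b, the neighbour of miR-20b, was detected on 1 array and was not tested. The median over the partners' probes was -0.48 at p4 and -0.05 at E17. Between E17 and p4, 4 of 6 partners were called lower in fl nerves, as were 7.47% of all miRNAs. The falls were 1.41 for mmu-miR-92a, 0.90 for mmu-miR-19b, 0.68 for mmu-miR-25 and 0.52 for mmu-miR-19a. Their mean gene signals, not normalized between arrays, went from 738 to 509, 347 to 295, 221 to 212 and 37.3 to 19.1. In wt nerves none was called, though mmu-miR-92a gave -0.49 (limma adjusted p = 0.0141) without overlap of arrays. Within the chromosome 14 transcript, the differences at p4 thus ran from -1.14 (mmu-miR-20a) to -0.19 (mmu-miR-19a). Within the Mcm7 transcript they ran from -0.92 (mmu-miR-93) to -0.40 (mmu-miR-25). Background in the log2 signals narrows the differences of dim miRNAs. In background-subtracted gene signals, the fl mean at p4 was 20.0% of the wt mean for mmu-miR-20a, 28.7% for mmu-miR-18a and 41.2% for mmu-miR-19a. It was 21.98% for mmu-miR-93, 23.5% for mmu-miR-106b and 40.2% for mmu-miR-25.

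**Figure D4:**
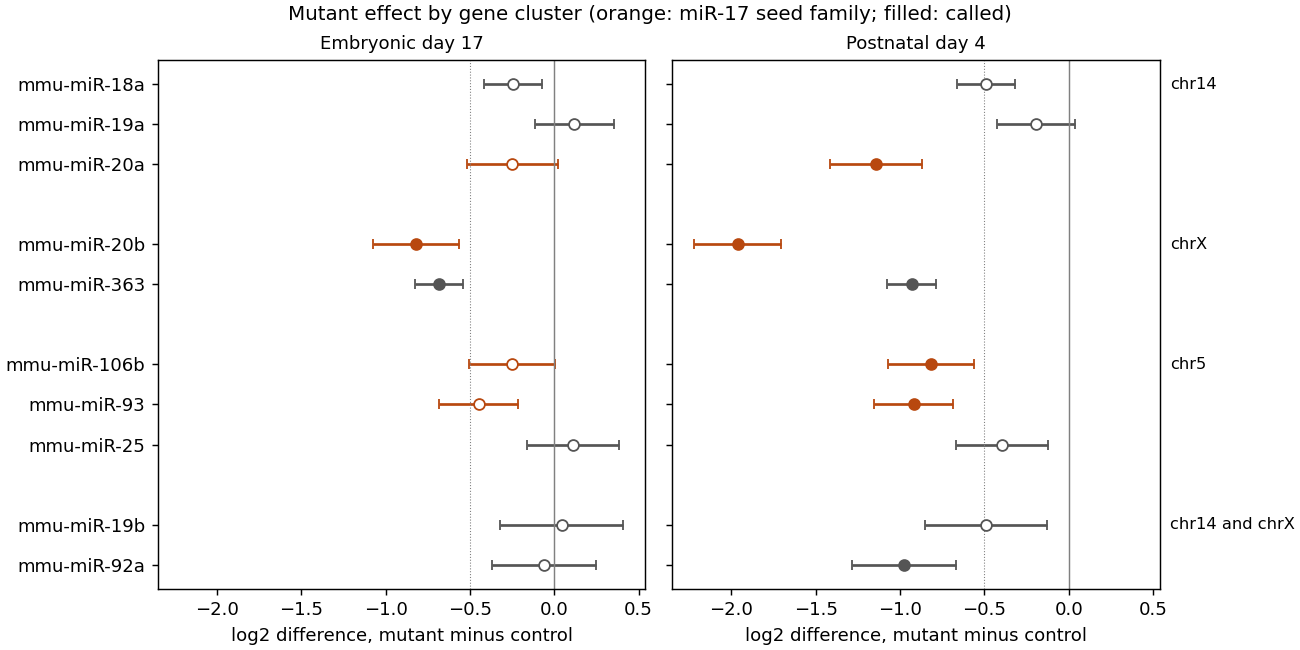
Log2 difference of fl minus wt (x axis, bars give 95% intervals from limma) at E17 and p4 for 4 members, in orange, and 6 partners, in grey, ordered by the chromosome of their hairpins, with filled points for called differences. The E17 panel has 2 filled points, mmu-miR-20b and mmu-miR-363, and the p4 panel has 6. The dotted line marks -0.5.

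Across the 16 arrays the 4 members followed one another closely, with Pearson's r from 0.920 between mmu-miR-20a and mmu-miR-93 to 0.967 between mmu-miR-20a and mmu-miR-106b. Outside the family, the pattern most like that of mmu-miR-20a was mmu-miR-18a (r = 0.971), followed by mmu-miR-15a (0.959) and mmu-miR-338-3p (0.909). mmu-miR-18a was also the likest to mmu-miR-20b (r = 0.945) and mmu-miR-106b (r = 0.944), and mmu-miR-181b was the likest to mmu-miR-93 (r = 0.921). These correlations describe the 16 arrays, which share 4 group means, and carry no test. mmu-miR-338-3p, an miRNA of myelinating glia, was among the 3 likest of every member, though its difference at p4 was -2.85 and thus larger than that of any member.

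The shares of marker miRNAs of cell types also differed between the genotypes. The Schwann cell markers are themselves cut by Dicer, so fewer Schwann cells and less marker per cell cannot be told apart. Among all 281 miRNAs, 30 were called lower in fl nerves and 29 higher at p4, and 7 and 10 at E17. Of the list of Schwann cells and myelinating glia (miR-338-3p, miR-138, miR-204 and miR-219), 3 of 4 were tested and 3 were called lower in fl nerves at p4 and none at E17, and mmu-miR-219 was not detected on any array. Its summed share of the total signal was 3.38% to 4.59% on wt arrays and 0.411% to 0.632% on fl arrays at p4, and 1.41% to 2.22% and 1.21% to 1.35% at E17. In the fibroblast and smooth muscle list, 4 of 5 were tested, and mmu-miR-145 was not detected on any array. Its mmu-miR-199a-3p, mmu-miR-199a-5p and mmu-miR-214 were called higher at both ages, and its mmu-miR-143 at neither. The share of this list was 3.20% to 3.67% on wt arrays and 7.07% to 8.72% on fl arrays at p4. At E17 the share was 3.51% to 5.94% and 6.96% to 7.69%. That of the endothelial list, with both of its miRNAs tested and 1 called higher at p4, was 0.908% to 1.55% on wt and 1.55% to 1.81% on fl arrays at p4, and 0.730% to 1.015% and 1.11% to 1.46% at E17. Erythroid markers (3 of 3 tested) held 1.74% to 5.44% on wt and 5.38% to 12.2% on fl arrays at E17, with mmu-miR-486 called higher, and 0.167% to 1.13% and 0.542% to 1.95% at p4, with mmu-miR-451 called higher and mmu-miR-144 not detected. Leukocyte markers (3 of 5 tested, mmu-miR-150 and mmu-miR-142-5p not detected) held 0.173% to 0.222% and 0.430% to 0.725% at p4, with mmu-miR-223 called higher, and 0.223% to 0.293% and 0.353% to 0.421% at E17, with mmu-miR-142-3p called higher. The shares of muscle markers (4 of 4 tested, none called by genotype) reached 2.19% and those of neuron markers (4 of 4 tested, mmu-miR-9 called lower at p4) 0.310% at most. The family as a whole held 1.53% to 2.23% on wt and 0.412% to 0.580% on fl arrays at p4, and 1.81% to 2.11% and 1.11% to 1.43% at E17. In summed signals at p4, the Schwann cell list had 4927 to 5635 on wt and 234 to 467 on fl arrays. The fibroblast and smooth muscle sums overlapped, at 4139 to 5658 and 4020 to 7293. So did the endothelial sums, at 1138 to 2381 and 927 to 1512. The part of these shifts in shares in the family's differences was not tested.

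**Figure D5:**
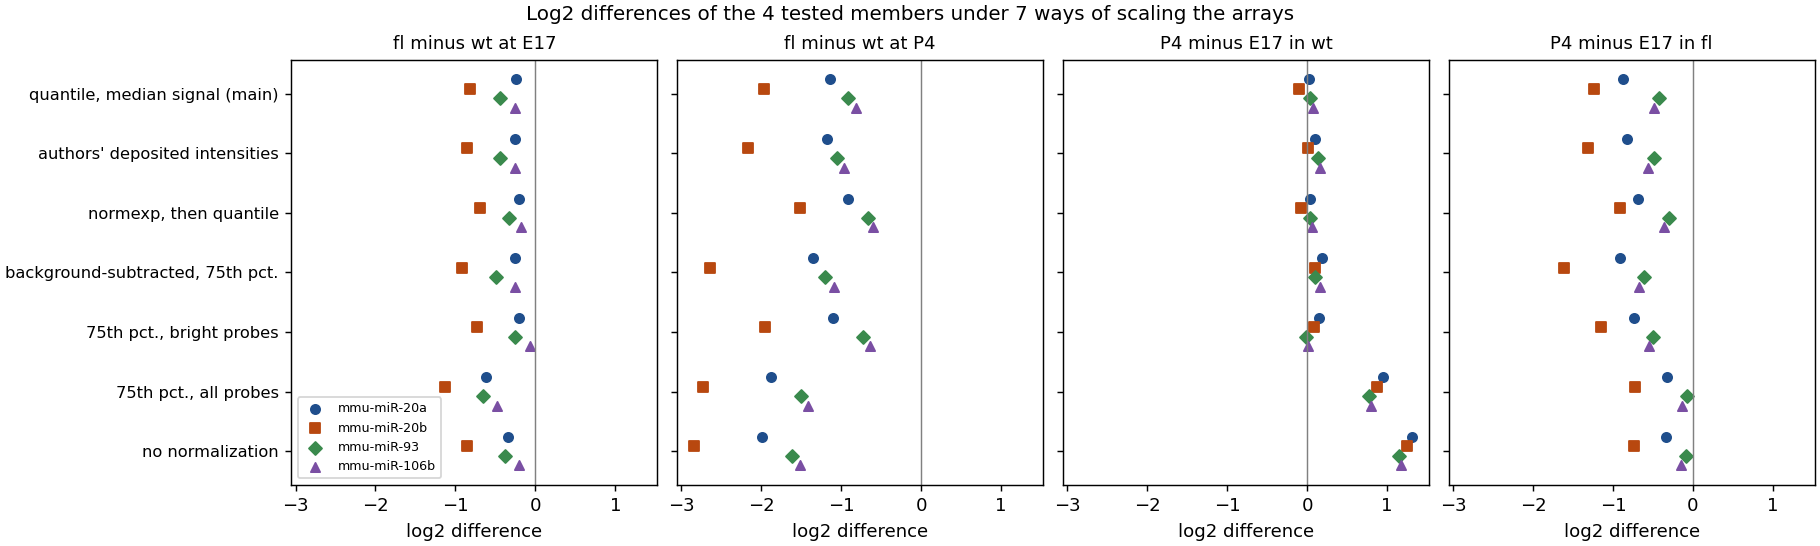
Log2 differences (x axis) of the 4 tested members in 4 comparisons under 7 ways of scaling the arrays (y axis). At p4 every point of fl minus wt lies below 0 with mmu-miR-20b lowest, whereas P4 minus E17 in wt moves from near 0 to between 0.78 and 1.31 under the last 2 scalings.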

How the data were processed

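Sciatic nerve RNA of 16 mice was labeled with Cy3 by the study and hybridized to 1 Agilent mouse miRNA array per mouse, and groups follow the labels. As deposited, the spot intensities are those written by Agilent Feature Extraction 10.5.1.1, each array on its own scale. A table of intensities that the authors had normalized by quantiles served as an alternative.

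From these, log2 median signals were quantile normalized over 13000 spots that are not controls and the spots of each probe were averaged, those marked as outliers excepted. A miRNA was tested where the detection flag was set on 0.5 or more of the arrays in any group, leaving 681 probes of 281 miRNAs. All 16 arrays entered 1 fit by limma 3.58.1 (R 4.3.3), and the methods' t-test was an alternative. The limma fit and the calls on probes were tested on simulated probe values, while the normalization, the filter and the permutation test were not. Signals of pairs of members were compared by exact permutation. Members, partners, marker lists and tests were chosen with earlier results of these data known. The genes named besides the members are those of the shared clusters, their passenger strands, the marker lists and the 3 miRNAs of the highest Pearson's r with each member. The number of arrays limits the precision, and no unmapped column was used.

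Littermate pairs were used at each age in the study, but the labels do not say that replicate numbers mark them. Deviations of same-numbered wt and fl arrays from their group means correlated at -0.52 to 0.09 at E17 and -0.28 to 0.46 at p4, so the numbers were not used as a block. The alternatives covered the signal, its background correction and normalization, the detection filter, the limits, the test, the arrays fitted, array weights, the block, the probe rule, outlier spots, the deposited table and leaving out each array.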

Additional observations from a re-analysis of the deposited data

Results flagged for a closer look

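The effect of the mutation differed between the ages for 3 members, by the test of the difference itself. As the effect at p4 minus that at E17, it was -1.14 for mmu-miR-20b, which fell by 1.96 at p4 and by 0.82 at E17 (limma adjusted p = 0.000320, all fl arrays under all wt arrays at both ages). It was -0.89 for mmu-miR-20a (limma adjusted p = 0.00348) and -0.57 for mmu-miR-106b (limma adjusted p = 0.0371), whose arrays were separate at p4 and overlapped at E17. In all 16 groups of 4 arrays tested, 4 members in 4 groups, no array of a member lay apart from the other 3.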

How the results depend on the processing

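All 4 members kept their call at p4 under every alternative except a limit of 1 on the log2 difference, which left 2 (mmu-miR-20a and mmu-miR-20b). At E17, mmu-miR-20b kept its call under all of them but that limit, which left 0 members, while scaling to the 75th percentile of all probes and no limit on the difference each gave 2. With the limit of 1, 1 member was called in fl between the ages and 1 for the difference of the mutant effects. Between the ages in fl, 2 members became 4 with background-subtracted signals or no limit, and 1 without normalization or with the 75th percentile of all probes. They became 3, with mmu-miR-106b added, with the 75th percentile of bright probes or the deposited table. Between the ages in wt, 0 became 4 called higher without normalization or with the 75th percentile of all probes, 2 called higher without a limit, and 1 called lower with that of bright probes, well above background on all arrays (mmu-miR-93, through its dimmer probe). For the difference of the mutant effects, 3 became 4 with background-subtracted signals, the 75th percentile of all probes, no normalization, array weights, the deposited table or no limit, and 2 with normexp.

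Members' values near 0 between the ages in wt changed sign. That of mmu-miR-20b (-0.10) became 0.10 with background-subtracted signals, 0.086 with the 75th percentile of bright probes, 0.88 with that of all probes, 1.25 without normalization and 0.0064 with the deposited table. That of mmu-miR-93 became -0.011 with the percentile of bright probes, and that of mmu-miR-20a -0.017 with outlier spots kept. Leaving out 1 array gave -0.061 to 0.095 for mmu-miR-20a, -0.028 to 0.10 for mmu-miR-93 and -0.024 to 0.15 for mmu-miR-106b in this comparison, and -0.092 to 0.023 for mmu-miR-93 minus mmu-miR-106b. It left 4 members called at p4, 1 at E17, 0 between the ages in wt, 2 to 3 in fl and 3 to 4 for the difference of the mutant effects.

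Of all miRNAs, 30 were lower and 29 higher at p4, against 89 and 1 without normalization and 22 and 203 with the percentile of bright probes. At E17, 7 were lower and 10 higher, against 21 and 0 with the percentile of all probes. Without normalization, 34 lower and 23 higher between the ages in wt became 4 and 161, 21 and 9 in fl became 8 and 57, and 19 and 8 for the difference of effects became 84 and 2 (37 and 64 with background-subtracted signals). In wt it was 197 and 30 with the percentile of bright probes and 99 and 60 with background-subtracted signals.

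With the replicate number as a block, 4 members were called at p4, 1 at E17 and 3 for the difference, with -1.96 and -0.82 for mmu-miR-20b (limma adjusted p = 5.85e-06 and 0.00372), so the block changed no call. In 1 of 8 pairs of arrays each correlated best with its own number.

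The normexp correction was run on median signals, an alternative added after seeing the data like the limma fit relative to a member, and ended the call on mmu-miR-106b for the difference of effects (-0.42, limma adjusted p = 0.0337). Without a filter on detection, its brightest probe missed the limit (limma adjusted p = 0.0821) and its other probe kept the call. The comparison of mmu-miR-106a with mmu-miR-17 and normexp on mean signals were not run. Signal over background limits mmu-miR-17, mmu-miR-363 and the dimmer probe of mmu-miR-93.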
